A study of Mus musculus with 2 samples.

Results

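The tumour necrosis factor (TNF) superfamily was followed in single-cell RNA sequencing of inflamed mouse colon through 10 of its genes. They comprise 5 ligands, Tnf, Lta, Ltb, Tnfsf13b and Tnfsf13, and 5 receptors, Tnfrsf1a, Tnfrsf1b, Ltbr, Tnfrsf11b and Tnfrsf12a. They were taken by symbol from the gene lists of both matrices, where all 10 of the 10 were found among 23197 genes listed in both. The study compared Elf-1-/- mice, whose library is called KO-labelled here, with wild-type (WT) mice, both of strain C57BL/6, both 8 to 10 weeks old and both given dextran sulfate sodium (DSS), a detergent-like polysaccharide that injures the colon lining. Each genotype gave 1 library, made from colon cells of 3 mice pooled before capture. The sampled tissue was proximal colon, distal colon and rectum, digested to single cells and captured in GEXSCOPE microwells. Nothing maps a cell to its mouse, so the difference between libraries has no replicate check, and no p-value or standard deviation is given for it. The sources used here give neither the sex of the mice nor the length of DSS treatment.

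TNF superfamily ligands are trimeric proteins, and most are made on the cell surface and can be cut free. TNF, made mainly by activated myeloid and T cells, signals through TNFR1 (Tnfrsf1a), which most cells carry, and TNFR2 (Tnfrsf1b), which is enriched on leukocytes. Lymphotoxin alpha (Lta) acts alone on the same receptors or joins lymphotoxin beta (Ltb) in a surface trimer that engages the lymphotoxin beta receptor (Ltbr) on stromal, epithelial and myeloid cells and shapes lymphoid tissue. BAFF (Tnfsf13b) and APRIL (Tnfsf13) keep B cells and plasma cells alive. Osteoprotegerin (Tnfrsf11b) is a secreted decoy receptor for RANKL (Tnfsf11), and FN14 (Tnfrsf12a) is the receptor of TWEAK (Tnfsf12) and is induced in injured tissue. TNF is a main mediator of intestinal inflammation, and Elf1 encodes a transcription factor of the ETS family, whose members bind GGAA-centred DNA.

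Tnf, Lta and Ltb lie side by side on mouse chromosome 17 (GRCm38), inside the major histocompatibility complex. Ltb spans 35194439 to 35196320 on the plus strand, Tnf 35199381 to 35202007 on the minus strand and Lta 35203165 to 35205351 on the minus strand, with 3060 bp between Ltb and Tnf and 1157 bp between Tnf and Lta. Their promoters are shown because these 3 neighbours were read from partly different cells and because the study concerns an ETS factor. Each is the 250 bases before the RefSeq start, in GRCm38.p6 and 5′ to 3′ on the gene's own strand. For Ltb the RefSeq start lies inside the span given above, so the end of its window falls within that span. Capitals mark the ETS hexamer AGGAAG on either strand and, in Ltb, a match to the kB consensus, the motif named after NF-kB.
Tnf, chr17:35202008-35202257, minus strand: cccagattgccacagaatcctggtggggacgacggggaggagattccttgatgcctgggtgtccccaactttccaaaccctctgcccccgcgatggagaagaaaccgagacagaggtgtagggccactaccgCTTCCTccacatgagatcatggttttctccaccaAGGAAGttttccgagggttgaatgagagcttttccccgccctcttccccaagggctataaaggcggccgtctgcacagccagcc
Lta, chr17:35205352-35205601, minus strand: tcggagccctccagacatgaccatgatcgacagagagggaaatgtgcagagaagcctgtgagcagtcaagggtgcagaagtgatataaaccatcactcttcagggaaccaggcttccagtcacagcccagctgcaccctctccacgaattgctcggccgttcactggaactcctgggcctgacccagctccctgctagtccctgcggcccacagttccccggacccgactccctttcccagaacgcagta
Ltb, chr17:35194257-35194506, plus strand: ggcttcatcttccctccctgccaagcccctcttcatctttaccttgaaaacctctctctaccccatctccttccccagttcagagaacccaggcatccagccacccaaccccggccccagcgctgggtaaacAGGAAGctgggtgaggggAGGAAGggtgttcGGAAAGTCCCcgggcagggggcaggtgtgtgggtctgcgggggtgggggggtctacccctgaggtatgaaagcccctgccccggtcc
The Tnf promoter held the hexamer at 84 to 79 bases before the start and its complement at 118 to 113 bases. The Ltb promoter held it at 118 to 113 and at 100 to 95 bases, with the kB match at 87 to 78 bases and no overlap between matches. The Lta window held neither motif, but it does hold the shorter GGAA core, which was not counted. Of 32841 mouse promoters of this length in the same RefSeq table, 9685 (29.5%) held the hexamer and 1281 (3.90%) a kB match. Of the 9 members with an entry, 5 held the hexamer (Tnf, Ltb, Tnfsf13b, Tnfrsf1a and Tnfrsf1b) and 1, Ltb, the kB match. These are letter matches, and binding was not measured.

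The library labelled Elf1 KO held 10012 barcodes and 39750319 unique molecular identifiers (UMIs, each marking 1 captured RNA molecule), and WT held 8635 barcodes and 32481613 UMIs. After filtering, 9474 KO-labelled and 7718 WT cells were kept, with medians of 2636 UMIs in KO-labelled cells and 2022.5 UMIs in WT, and 44 barcodes occurred in both libraries. Elf1 RNA stood at 181 CPM (counts scaled to a class or library total of 1000000 UMIs) in the KO-labelled library and 192 CPM in WT. With the deleted part of the gene not given in the sources used here, these counts do not check the label. Clustering left out the 10 members, and clusters were joined into cell classes by marker genes. The classes were filled unequally. The KO-labelled library held 64 epithelial cells, 2776 fibroblasts, 1013 B cells and 1257 neutrophils, and WT held 1052 epithelial cells, 1227 fibroblasts, 2537 B cells and 165 neutrophils. The class called smooth muscle cells and pericytes was mixed and unlike between libraries. Its own 11 markers summed to 5523 CPM in KO-labelled cells and 20739 CPM in WT. Fibroblast markers summed there to 74.3% (KO-labelled) and 34.5% (WT) of their level in fibroblasts. Its name is therefore loose, above all in the KO-labelled library. Intervals given below are exact 95% intervals of counting error only (Poisson for CPM, Clopper-Pearson for shares, conditional binomial for a ratio of libraries). They do not cover differences between mice. "Higher", "lower" and a fold are used where the interval of the ratio leaves out 1. Scaling by TMM in place of total UMIs moved every log2 ratio up by 0.38 in fibroblasts and in neutrophils, 0.30 in smooth muscle cells, 0.24 over all kept cells, 0.20 in endothelial cells and 0.15 in macrophages. The shift was 0.03 in dendritic cells, and it was downward at -0.05 in B cells, -0.08 in T and innate lymphoid cells and -0.03 in plasma cells.

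Over all kept cells, the KO-labelled library had more Tnf and more receptor RNA and less lymphotoxin and BAFF RNA than WT. With equal class shares the order of Ltbr turned, and Tnfrsf1a and Tnfrsf1b differed little. Lta stood at 2.15 CPM in KO-labelled cells and 12.5 CPM in WT, 5.83-fold lower (interval 4.56 to 7.51). Ltb stood at 63.3 CPM in KO-labelled cells and 150.3 CPM in WT, 2.37-fold lower (2.26 to 2.50), and Tnfsf13b at 30.7 CPM in KO-labelled cells and 58.8 CPM in WT, 1.92-fold lower (1.78 to 2.06). Tnf stood at 125 CPM in KO-labelled cells and 82.1 CPM in WT, 1.52-fold higher (1.45 to 1.60). Among receptors Tnfrsf11b was 2.20-fold higher (39.6 CPM in KO-labelled cells, 18.0 CPM in WT), Tnfrsf12a 2.10-fold higher (83.1 CPM KO-labelled, 39.5 CPM WT) and Tnfrsf1a 1.74-fold higher (216 CPM KO-labelled, 124 CPM WT). Tnfrsf1b at 63.6 CPM in KO-labelled cells and 45.5 CPM in WT and Ltbr at 59.3 CPM in KO-labelled cells and 54.2 CPM in WT were 1.40-fold and 1.09-fold higher. In these whole-library sums Lta, Ltb and Tnfsf13b were thus lower, and Tnf and every receptor higher. Of the 9 members with at least 50 UMIs, 2 were at least 2-fold higher, where 7.29% of 15167 genes were, and 2 at least 2-fold lower, where 18.3% of genes were. In such sums more or fewer cells of a type and more or less RNA per cell cannot be told apart. With every class given the same share in both libraries, the levels became 106 CPM in KO-labelled cells and 83.2 CPM in WT for Tnf, 2.91 CPM in KO-labelled cells and 9.62 CPM in WT for Lta, 77.7 CPM in KO-labelled cells and 119 CPM in WT for Ltb, and 25.02 CPM in KO-labelled cells and 83.9 CPM in WT for Tnfsf13b. For the TNF receptors they were 181 CPM in KO-labelled cells and 171 CPM in WT for Tnfrsf1a, and 57.8 CPM in KO-labelled cells and 56.8 CPM in WT for Tnfrsf1b. They were 33.2 CPM in KO-labelled cells and 25.8 CPM in WT for Tnfrsf11b, 76.3 CPM in KO-labelled cells and 45.8 CPM in WT for Tnfrsf12a, and 52.0 CPM in KO-labelled cells and 60.7 CPM in WT for Ltbr. Within fibroblasts Tnfrsf1a, Tnfrsf1b and Ltbr were 1.28-fold, 1.28-fold and 1.48-fold lower, though TMM scaling reversed the order of Tnfrsf1a and Tnfrsf1b.

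**Figure D1:**
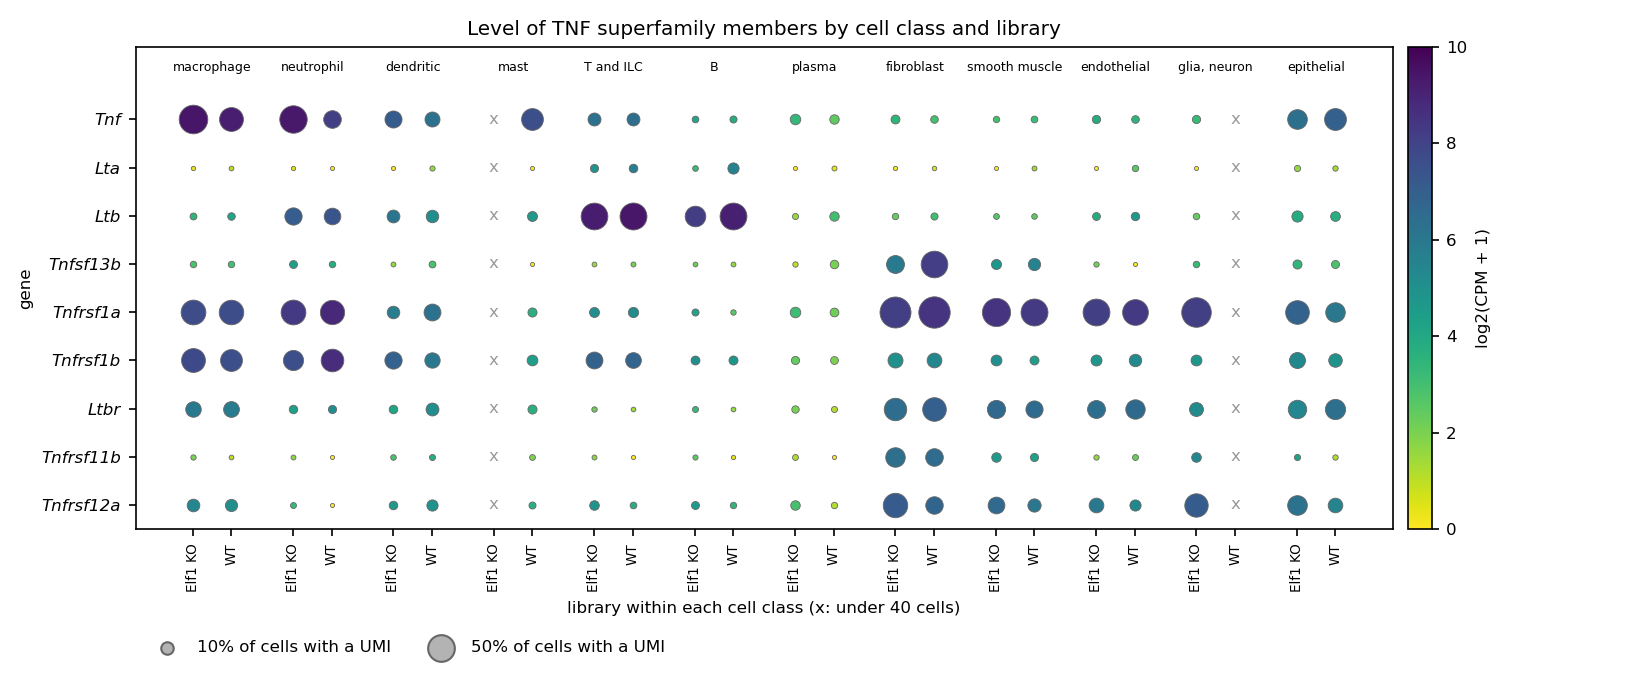
Level of 9 members in each cell class, by library. Colour gives log2(CPM + 1), dot size the percentage of cells with a UMI, and x a class of under 40 cells in that library. Tnf is darkest in macrophages and neutrophils, Ltb in T and B cells, Tnfsf13b in fibroblasts, and Tnfrsf1a in stromal cells, neutrophils and macrophages. Tnfsf13 is not drawn, since it had 4 KO-labelled UMIs and 7 UMIs in WT.

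Tnf RNA was highest in macrophages and monocytes, where it was 1.19-fold higher in the KO-labelled library, and second highest in neutrophils, where it was 2.32-fold higher. In macrophages Tnf stood at 684 CPM (656 to 712, from 2387 UMIs) in KO-labelled cells and 575 CPM (542 to 610, from 1122 UMIs) in WT, a log2 ratio of 0.25 (0.15 to 0.35). A Tnf UMI was found in 57.8% of KO-labelled macrophages and 39.8% in WT. In neutrophils Tnf stood at 657 CPM (626 to 688) in KO-labelled cells and 284 CPM (220 to 360) in WT, a log2 ratio of 1.21 (0.86 to 1.59). The WT neutrophil value rests on 67 UMIs in 165 cells. A finer clustering split the neutrophils into cluster 2 (750 KO-labelled and 158 WT cells) and a cluster 3 led by the granule genes Camp and Ngp (508 KO-labelled and 7 WT cells). In the finer cluster 2 alone, read after the data had been seen, Tnf stood at 868 CPM in KO-labelled cells and 298 CPM in WT, 2.92-fold higher (2.28 to 3.79). The intervals of macrophages and neutrophils overlap in the KO-labelled library and not in WT. A Tnf UMI was found in 53.1% of KO-labelled neutrophils and 21.2% in WT. Both classes kept this order at equal depth. With every cell thinned to 1000 UMIs, the shares were 35.8% of KO-labelled and 27.8% of WT macrophages, and 37.9% of KO-labelled and 20.2% of WT neutrophils. Thinning left out 137 KO-labelled and 68 WT macrophages, and 88 KO-labelled and 36 WT neutrophils. Smooth muscle cells and pericytes, which should lack Tnf, held a UMI in 1.74% of KO-labelled and 2.03% of WT cells, far under both. Median depths were 2881.5 UMIs in KO-labelled and 3027.5 UMIs in WT macrophages, 1943 and 1339 UMIs in KO-labelled and WT neutrophils, and 2731 and 2646 UMIs in KO-labelled and WT smooth muscle cells. The 14 macrophage markers summed in neutrophils to 32.8% (KO-labelled) and 31.0% (WT) of their level in macrophages. The median marker reached 1.41% (KO-labelled) and 1.08% (WT), with 0 of 14 markers at 0 in KO-labelled and 3 of 14 in WT neutrophils, and their part in the neutrophil values was not tested.

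Within macrophages the direction depended on the cluster. In cluster 5 Tnf stood at 793 CPM in KO-labelled cells and 406 CPM in WT, 1.96-fold higher (1.71 to 2.24). In cluster 7 it stood at 599 CPM in KO-labelled cells and 665 CPM in WT, 1.11-fold lower (1.02 to 1.21). The difference between clusters was not tested. The monocyte and inflammatory macrophage-like subclusters held 763 CPM (717 to 810) in KO-labelled cells and 412 CPM (367 to 461) in WT, and the resident macrophage-like subclusters 505 CPM (461 to 551) in KO-labelled cells and 853 CPM (782 to 929) in WT. Almost separate subclusters made up these subtypes in the libraries. Monocyte subcluster 0 held 285 KO-labelled and 2 WT cells, subcluster 1 10 KO-labelled and 209 WT cells, and subcluster 9 204 KO-labelled and 22 WT cells. Resident subcluster 6 held 95 KO-labelled and 6 WT cells, and subcluster 7 3 KO-labelled and 92 WT cells. Subcluster identity and genotype therefore cannot be told apart in the subtype values. In dendritic cells Tnf stood at 139 CPM in KO-labelled cells and 77.1 CPM in WT, 1.80-fold higher (1.18 to 2.77), from 65 KO-labelled and 37 WT UMIs, and turned to a log2 ratio of -0.16 when clusters were cut more finely. Dendritic cluster 0 held 135 KO-labelled and 31 WT cells and cluster 23 63 KO-labelled and 109 WT cells. Tnf stood at 125 CPM in KO-labelled cells and 197 CPM in WT in cluster 0, with an interval that includes no difference, and at 159.8 CPM in KO-labelled cells and 50.8 CPM in WT in cluster 23, 3.15-fold higher (1.72 to 5.87). T and innate lymphoid cells had 74.3 CPM in KO-labelled cells and 82.8 CPM in WT, a log2 ratio of -0.16 whose interval of -0.48 to 0.17 includes no difference. Mast cells and basophils, of which WT had 85, held 193 CPM there and a Tnf UMI in 32.9% of cells. The class had 19 KO-labelled cells and is not compared. Fibroblasts, smooth muscle cells, endothelial cells, B cells and plasma cells held low levels, from 6.85 to 16.6 CPM in KO-labelled cells and from 4.42 to 13.8 CPM in WT.

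Epithelial cells carried Tnf as well. The 64 KO-labelled epithelial cells held 79.5 CPM (56.8 to 108, from 40 UMIs), and the 1052 WT epithelial cells 124 CPM (116 to 133, from 852 UMIs). A UMI was found in 26.6% of KO-labelled and 33.1% of WT epithelial cells, or 5.56% of KO-labelled and 10.5% of WT cells after thinning, which left out 10 KO-labelled and 249 WT cells. No ratio is given between them, since the KO-labelled class is under 100 cells and different clusters filled it, cluster 22 with 57 KO-labelled and 21 WT cells and cluster 27 with 7 KO-labelled and 898 WT cells. Within WT epithelium the subtypes of most cells held levels with overlapping intervals. Tnf was at 121 CPM (104 to 139) in absorptive-like cells, 117 CPM (98.7 to 138) in goblet-like cells and 123 CPM (91.9 to 162) in undifferentiated and cycling-like cells. It was at 43.6 CPM (18.8 to 85.9) in the 21 enteroendocrine-like cells and at 182 CPM (149 to 220.2) in subcluster 5. Subcluster 1, which carried leukocyte genes such as Cd83 and Cd52, held 127 CPM, and the rest of WT epithelium held 124 CPM. The 14 macrophage markers in WT epithelium summed to 0.871% of their level in macrophages, with a median of 0.58%, a highest value of 3.54% and 0 of 14 at 0. Tnf stood at 124 CPM in WT epithelium and 575 CPM in WT macrophages, and the part of free or neighbouring RNA in the epithelial value was not tested.

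The cells that supplied Tnf RNA differed in number as well as in level. Of all KO-labelled Tnf UMIs, macrophages held 51.2%, neutrophils 37.0% and epithelial cells 0.858%. Of all WT Tnf UMIs, macrophages held 45.8%, neutrophils 2.74% and epithelial cells 34.8%. With equal class shares, macrophages held 51.1%, neutrophils 25.4% and epithelial cells 10.7% of the KO-labelled Tnf, against 56.4%, 9.91% and 18.4% of the WT Tnf. The second largest source was thus neutrophils in the KO-labelled library and epithelium in WT. With equal shares neutrophils stood above epithelium in the KO-labelled library only.

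**Figure D2:**
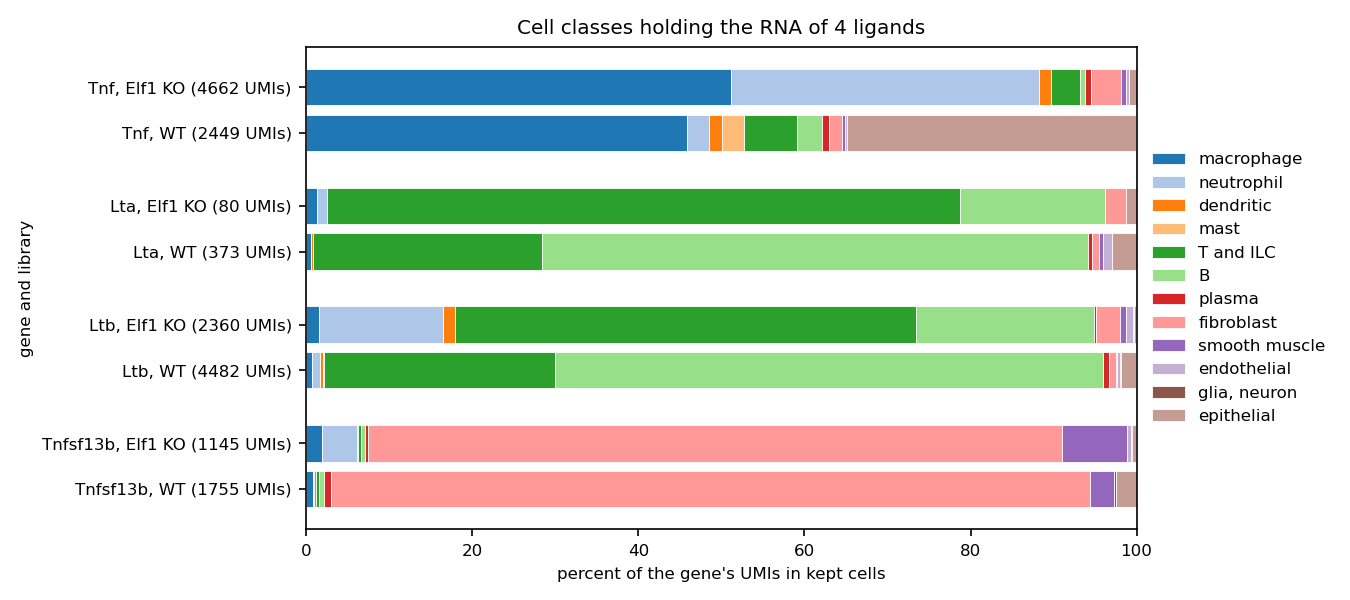
Percentage of each ligand's UMIs held by each cell class, KO-labelled above WT, for Tnf, Lta, Ltb and Tnfsf13b. Neutrophils hold 37.0% of KO-labelled and 2.74% of WT Tnf UMIs, B cells 21.4% of KO-labelled and 66.0% of WT Ltb UMIs, and fibroblasts 83.6% of KO-labelled and 91.5% of WT Tnfsf13b UMIs.

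Lta RNA came almost entirely from B cells and from T and innate lymphoid cells, and both classes held less of it in the KO-labelled library. In B cells Lta stood at 8.31 CPM (4.54 to 13.9, from 14 UMIs) in KO-labelled cells and 45.8 CPM (40.3 to 51.9, from 245 UMIs) in WT. It was 5.51-fold lower (3.22 to 10.2), a log2 ratio of -2.46. A UMI was found in 1.09% of KO-labelled B cells and 7.80% in WT, or 0.713% (KO-labelled) and 4.88% (WT) after thinning, which left out 312 KO-labelled and 467 WT cells. Neutrophils, which should lack Lta, held a UMI in 0.0796% of KO-labelled cells and in 0 of 165 WT cells, which allows a share of up to 1.82%. Outside B, T and innate lymphoid cells, no class of at least 40 cells held over 1.99 CPM in KO-labelled cells or 5.10 CPM in WT. Of 6 members with enough UMIs in B cells, 1, Lta, was at least 2-fold lower, where 6.31% of 8575 genes were, and 2, Tnfrsf1a and Tnfrsf12a, were at least 2-fold higher, where 4.02% were.

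By cluster, the Lta difference in B cells was not uniform. Cluster 8, with 904 KO-labelled cells and 745 in WT, held 3.50 CPM (0.954 to 8.97, from 4 UMIs) in KO-labelled cells and 67.5 CPM (51.4 to 87.1, from 59 UMIs) in WT, 19.3-fold lower (7.14 to 73.1). Median depths there were 1123.5 UMIs in KO-labelled cells and 1070.0 UMIs in WT. In cluster 9 the levels were 50.01 CPM (20.1 to 103, from 7 UMIs in 59 cells) in KO-labelled cells and 46.6 CPM (38.6 to 55.9) in WT, and the intervals overlap widely. In cluster 20 they were 7.44 CPM (1.53 to 21.7, from 3 UMIs) in KO-labelled cells and 35.1 CPM (27.3 to 44.4) in WT. Most KO-labelled B cells, 904 of 1013, lay in cluster 8, and most WT B cells, 1492 of 2537, in cluster 9. The finer clustering parted the B cells further by library, into cluster 11 (869 KO-labelled and 98 WT cells), cluster 27 (44 KO-labelled and 822 WT cells) and cluster 32 (51 KO-labelled and 1316 WT cells). Finer cluster 11 held 4 KO-labelled and 7 WT Lta UMIs, at 3.64 CPM in KO-labelled cells and 44.2 CPM in WT, 12.1-fold lower (3.08 to 56.5).

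In T and innate lymphoid cells Lta stood at 28.1 CPM (21.5 to 36.2) in KO-labelled cells and 55.4 CPM (45.2 to 67.2) in WT, 1.97-fold lower (1.42 to 2.75). A small subcluster decided that value. Subcluster 6, led by the cytokine gene Il22 and with Lta itself among its leading genes, held 394 CPM (268 to 559, from 31 UMIs in 40 cells) in KO-labelled cells and 1694 CPM (1313 to 2151, from 67 UMIs in 17 cells) in WT. Without it the class held 14.4 CPM in KO-labelled cells and 19.8 CPM in WT, 1.38-fold lower, with an interval that reaches from 0.824 to 2.31 and includes 1. CD4 T-like cells held 32.9 CPM in KO-labelled cells and 28.0 CPM in WT, regulatory T-like cells 10.7 CPM in KO-labelled cells and 8.76 CPM in WT, and CD8 T-like cells 11.6 CPM in KO-labelled cells and 9.36 CPM in WT. These rest on 1 to 20 UMIs a library, and no interval of the ratio left out 1. The CD4 T-like cells leave out an unnamed subcluster 0, nearest to CD4 T by markers, with 302 KO-labelled and 30 WT cells. T and innate lymphoid cells held 76.2% of KO-labelled and 27.6% of WT Lta UMIs, and B cells 17.5% of KO-labelled and 65.7% of WT Lta UMIs.

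Ltb was read in T and innate lymphoid cells and in B cells, and it was lower in B cells of the KO-labelled library. There Ltb stood at 300.2 CPM (275 to 328) in KO-labelled cells and 553 CPM (534 to 574) in WT, 1.84-fold lower (1.68 to 2.03). A UMI was found in 29.5% of KO-labelled B cells and 50.8% in WT, or 24.8% (KO-labelled) and 39.5% (WT) after thinning. Smooth muscle cells and pericytes held one in 1.16% of KO-labelled and 1.01% of WT cells. The order was the same in all 3 B cell clusters at the main resolution. The levels were 335 CPM in KO-labelled cells and 714 CPM in WT in cluster 8 (2.13-fold lower, 1.87 to 2.42), 386 CPM in KO-labelled cells and 681 CPM in WT in cluster 9, and 171 CPM in KO-labelled cells and 319 CPM in WT in cluster 20. In finer cluster 11, which holds most KO-labelled B cells, Ltb stood at 332 CPM in KO-labelled cells and 335 CPM in WT, 1.01-fold lower with an interval of 0.74 to 1.35 that includes 1. Cell state and genotype therefore cannot be told apart in the Ltb value of the whole class.

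In T and innate lymphoid cells Ltb stood at 605 CPM (572 to 638) in KO-labelled cells and 669 CPM (633 to 708) in WT, 1.11-fold lower (1.02 to 1.2), an order that turned to a log2 ratio of 0.07 after thinning. Without subcluster 6 the levels were 613 CPM in KO-labelled cells and 618 CPM in WT, a log2 ratio of -0.01. Clusters of the class gave different ratios. Cluster 17 held 847 CPM in KO-labelled cells and 686 CPM in WT, 1.23-fold higher (1.10 to 1.38). Cluster 19, led by Il17a and Trdc, held 565 CPM in KO-labelled cells and 1152 CPM in WT, 2.04-fold lower (1.69 to 2.45). All cells of subcluster 6 lie in cluster 19, and their 17 WT cells held 120 of its 194 WT Ltb UMIs. Without them cluster 19 held 599 CPM in KO-labelled cells and 574 CPM in WT, with an interval of the ratio from 0.802 to 1.37. The difference between the clusters was not tested. Neutrophils held Ltb at 134 CPM in KO-labelled cells and 169 CPM in WT, a log2 ratio of -0.34 (-0.81 to 0.17), with a UMI in 20.3% of KO-labelled and 18.8% of WT cells. In KO-labelled neutrophils T cell markers summed to 0.506% and B cell markers to 0.508% of their own-class level, and in WT neutrophils to 1.81% and 4.14%. Their part in the neutrophil value was not tested. Ltb was found beside Lta more often than without it. A Ltb UMI was present in 8 of 11 KO-labelled (72.7%) and 135 of 198 WT B cells with Lta (68.2%), against 29.0% of KO-labelled and 49.3% of WT B cells without Lta. Depth was not matched between those cells.

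**Figure D3:**
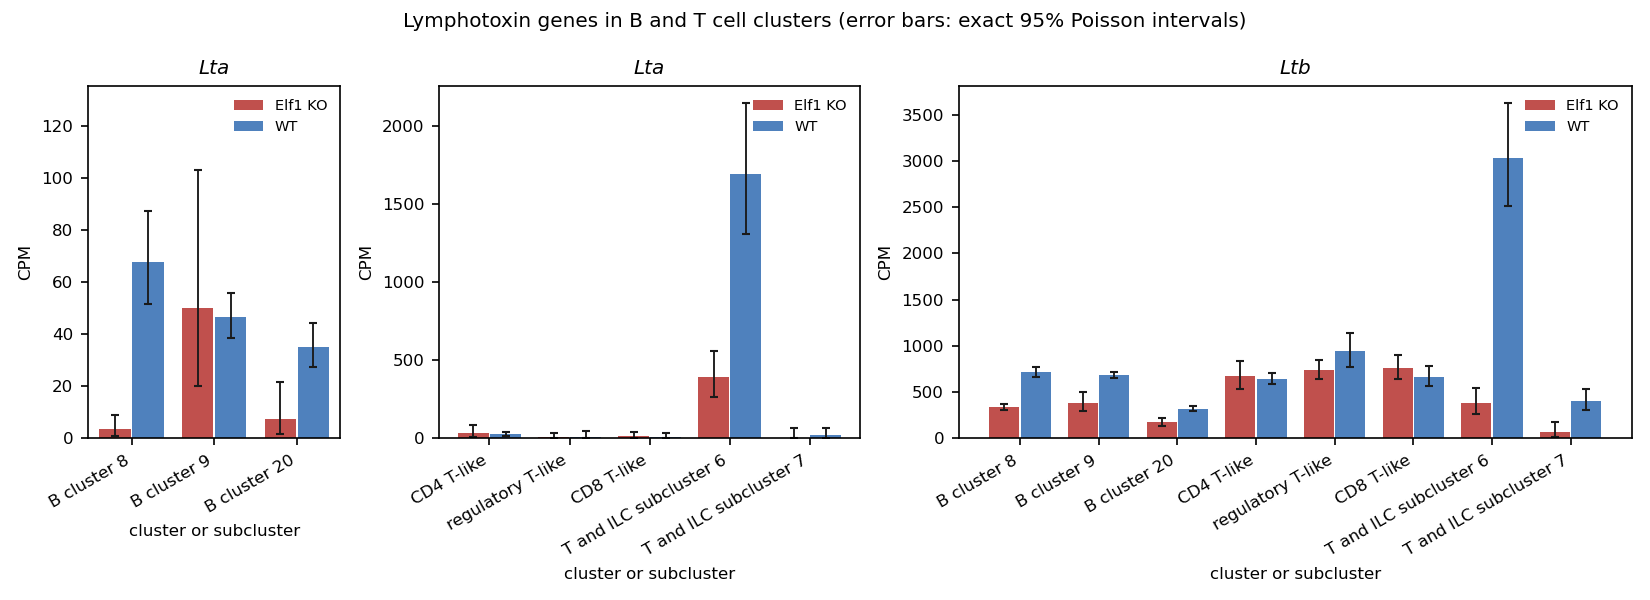
Lta in B cell clusters, Lta in T and innate lymphoid subclusters, and Ltb in both, in CPM, KO-labelled left of WT. Bars are levels and error bars exact 95% Poisson intervals. Lta in B cluster 8 is at 3.50 CPM in KO-labelled cells and 67.5 CPM in WT, and Lta in subcluster 6 at 394 CPM in KO-labelled cells and 1694 CPM in WT.

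Tnfsf13b, which encodes BAFF, was a fibroblast gene in both libraries and was 4.94-fold lower (4.56 to 5.36) in KO-labelled fibroblasts. It stood at 59.0 CPM (55.3 to 62.9, from 957 UMIs) in KO-labelled cells and 291 CPM (277 to 306, from 1605 UMIs) in WT. A UMI was found in 21.8% of KO-labelled fibroblasts and 50.04% in WT, or 5.52% (KO-labelled) and 20.6% (WT) after thinning, which left out 239 KO-labelled and 68 WT cells. T and innate lymphoid cells held one in 0.421% of KO-labelled and 0.554% of WT cells, far under both fibroblast shares. Median depths were 1480.0 UMIs in KO-labelled and 1748.5 UMIs in WT T and innate lymphoid cells, and 5600.5 UMIs in KO-labelled and 4246 UMIs in WT fibroblasts. Fibroblasts held 83.6% of KO-labelled and 91.5% of WT Tnfsf13b UMIs.

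The libraries filled different fibroblast clusters, and this and the whole-class ratio cannot be told apart. Cluster 15 held 600 KO-labelled and 27 WT cells, and carried 21.8 CPM in KO-labelled cells. Cluster 4 held 8 KO-labelled and 899 WT cells, and carried 365 CPM (346 to 385) in WT. In cluster 3, filled with 1632 KO-labelled and 112 WT cells, Tnfsf13b stood at 77.9 CPM in KO-labelled cells and 88.8 CPM in WT, 1.14-fold lower with an interval of 0.859 to 1.49 that includes 1. In cluster 10, with 451 KO-labelled and 127 WT cells, it stood at 32.4 CPM in KO-labelled cells and 182 CPM in WT, 5.64-fold lower (4.36 to 7.29). Cluster 11 had no Tnfsf13b UMI in 85 KO-labelled and 62 WT cells. The 2 clusters that both libraries filled best thus gave different ratios. Smooth muscle cells and pericytes held 25.7 CPM in KO-labelled cells and 45.9 CPM in WT, 1.79-fold lower (1.24 to 2.55). Most of the KO-labelled ones lay in cluster 13 (1053 of 1210) and most of the WT ones in cluster 29 (265 of 395), and cluster 13 held 27.9 CPM in KO-labelled cells and 91.8 CPM in WT. Neutrophils held 18.2 CPM in KO-labelled cells and 12.7 CPM in WT. Of the 8 members with enough UMIs in fibroblasts, 1, Tnfsf13b, was at least 2-fold lower, where 13.4% of 11390 genes were, and 0 were at least 2-fold higher, where 3.39% were.

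The receptors of BAFF, which are not among the 10 genes, were read in the B lineage. Tnfrsf13c, the main BAFF receptor of B cells, stood at 147 CPM in KO-labelled cells and 375 CPM in WT in B cells, 2.56-fold lower (2.24 to 2.94), and at 132 CPM in KO-labelled cells and 367 CPM in WT within cluster 8. It was among the leading genes of finer clusters 27 (44 KO-labelled, 822 WT cells) and 32 (51 KO-labelled, 1316 WT cells). No value is given for finer cluster 11 (869 KO-labelled, 98 WT cells). Cell state and genotype therefore cannot be told apart in the Tnfrsf13c values. Tnfrsf13b, which encodes TACI, stood at 115 CPM in KO-labelled cells and 143 CPM in WT, and ran in opposite order in cluster 8 (67.4 CPM KO-labelled, 161 CPM WT) and cluster 9 (236 CPM KO-labelled, 124 CPM WT). Tnfrsf17, which encodes BCMA, stood at 35.2 CPM in KO-labelled plasma cells and 75.8 CPM in WT.

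Tnfsf13, which encodes APRIL, gave 4 KO-labelled UMIs and 7 UMIs in WT, too few for a level by class. Its gene on chromosome 11 (69682846 to 69685784, minus strand) lies with 100% of its length inside the read-through gene Tnfsfm13, which had 34 UMIs in KO-labelled cells and 28 UMIs in WT. The counting of reads shared by both genes was not stated in the labels or processing notes.

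**Figure D4:**
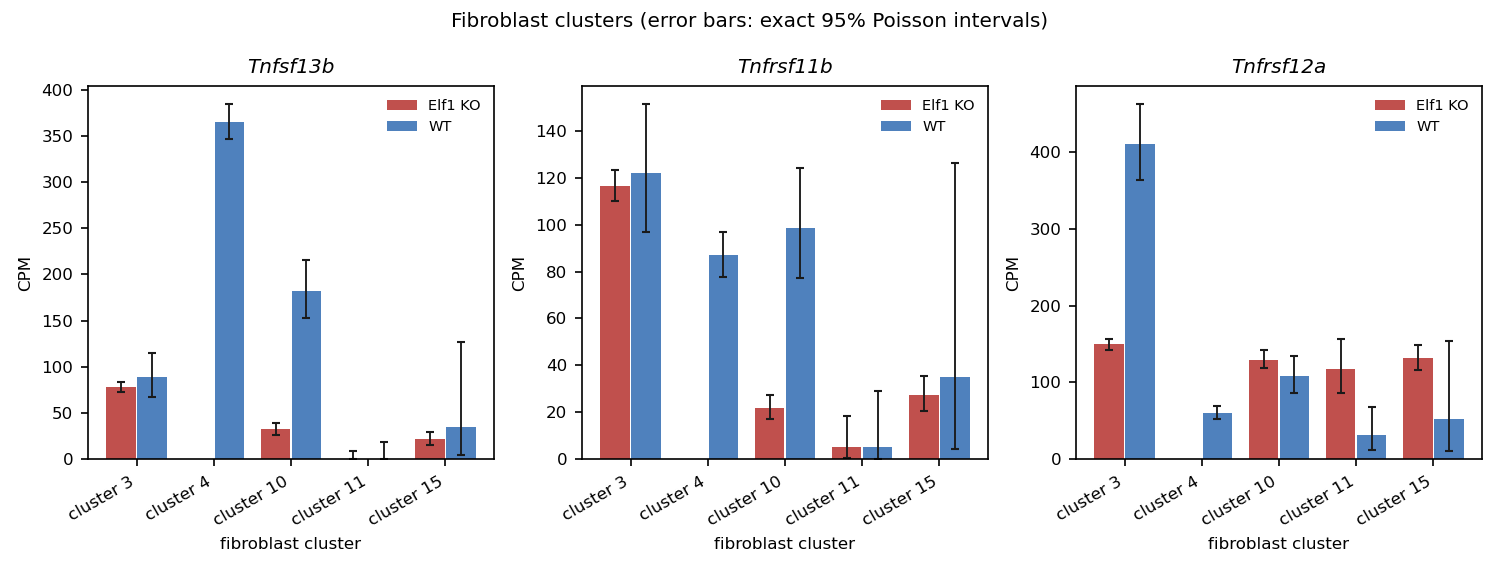
Tnfsf13b, Tnfrsf11b and Tnfrsf12a in the fibroblast clusters, in CPM with exact 95% Poisson intervals, KO-labelled left of WT. Groups of under 15 cells are not drawn. In cluster 10 Tnfsf13b is at 32.4 CPM in KO-labelled cells and 182 CPM in WT, and in cluster 3 Tnfrsf12a at 149 CPM in KO-labelled cells and 411 CPM in WT.

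Tnfrsf1a, the gene of TNFR1 (chromosome 6, 125349362 to 125362484, plus strand), was read in stromal, endothelial and myeloid cells of both libraries. Smooth muscle cells and pericytes had 357 CPM in KO-labelled cells and 323 CPM in WT, with an interval of the ratio from 0.982 to 1.246. Endothelial cells had 283 CPM in KO-labelled cells and 311 CPM in WT, macrophages 207 CPM in KO-labelled cells and 206 CPM in WT, and the macrophage log2 ratio was 0.01 (-0.17 to 0.19). Fibroblasts had 280 CPM (272 to 289) in KO-labelled cells and 359 CPM (343 to 375) in WT, 1.28-fold lower (1.21 to 1.35), which TMM scaling turned to a log2 ratio of 0.02. Cluster 3 alone had 270.1 CPM in KO-labelled cells and 245 CPM in WT, with an interval of the ratio from 0.94 to 1.30. A Tnfrsf1a UMI was found in 68.0% of KO-labelled fibroblasts and 69.8% in WT, and in 2.20% of KO-labelled and 2.38% of WT erythroid cells, whose median depths were 6742 UMIs (KO-labelled) and 9114.5 UMIs (WT). Neutrophils had 310.2 CPM in KO-labelled cells and 457 CPM in WT, 1.47-fold lower (1.19 to 1.80). TMM scaling moved that log2 ratio to -0.18, and its interval, shifted by the same constant, then included 0.

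In lymphocytes Tnfrsf1a was sparse. T and innate lymphoid cells had 32.8 CPM in KO-labelled cells and 36.0 CPM in WT. B cells had 17.8 CPM (12.0 to 25.4, from 30 UMIs) in KO-labelled cells and 4.86 CPM (3.18 to 7.12, from 26 UMIs) in WT, 3.66-fold higher (2.09 to 6.45). The shares of B cells with a UMI, 2.37% (KO-labelled) and 0.867% (WT), lay near or below those of erythroid cells. Depth was not matched there, since B cells had medians of 1164 UMIs (KO-labelled) and 1405 UMIs (WT), far under erythroid depth. Erythroid cells held 2.97 CPM in the KO-labelled library and 2.42 CPM in WT, below the B cell levels, from 2 KO-labelled UMIs and 1 WT UMI. In KO-labelled B cells, 11 fibroblast markers summed to 3.03% and 14 macrophage markers to 4.48% of their own-class level, and in WT B cells to 0.879% and 1.68%, with 0 of 11 fibroblast markers at 0. Their part in the Tnfrsf1a values was not tested. Epithelial cells had 117 CPM (89.3 to 151) in KO-labelled cells and 64.2 CPM (58.3 to 70.4) in WT.

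Tnfrsf1b, the gene of TNFR2 (chromosome 4, 145213463 to 145246870, minus strand), was highest in myeloid cells and regulatory T-like cells. Neutrophils had 195 CPM (179 to 213) in KO-labelled cells and 423 CPM (344 to 515) in WT, 2.17-fold lower (1.73 to 2.69). A UMI was found in 28.0% of KO-labelled neutrophils and 35.8% in WT, or 17.4% (KO-labelled) and 32.6% (WT) after thinning. In the finer cluster 2, without most of the granule-gene cells, Tnfrsf1b stood at 273 CPM in KO-labelled cells and 435 CPM in WT, 1.60-fold lower (1.26 to 2.00), and Tnfrsf1a at 323 CPM in KO-labelled cells and 471 CPM in WT. Macrophages had 223 CPM (207 to 239) in KO-labelled cells and 193 CPM (174 to 213) in WT, 1.16-fold higher (1.02 to 1.31), with cluster 5 at 288 CPM in KO-labelled cells and 343 CPM in WT (1.19-fold lower, 1.01 to 1.40) and cluster 7 at 172 CPM in KO-labelled cells and 113 CPM in WT (1.52-fold higher, 1.25 to 1.86). Dendritic cells had 121 CPM in KO-labelled cells and 62.5 CPM in WT, 1.94-fold higher (1.23 to 3.13), with 136 CPM in KO-labelled cells and 139 CPM in WT in cluster 0 and 99.2 CPM in KO-labelled cells and 45.7 CPM in WT in cluster 23 (2.17-fold higher, 1.07 to 4.42). Regulatory T-like cells had 252 CPM in KO-labelled cells and 376 CPM in WT, CD8 T-like cells 174 CPM in KO-labelled cells and 136 CPM in WT, and CD4 T-like cells 24.7 CPM in KO-labelled cells and 77.1 CPM in WT. No interval is given for these subtypes, so no direction is read from them. The CD4 T-like values rest on few KO-labelled cells and leave out the unnamed subcluster 0 (302 KO-labelled and 30 WT cells). The whole T and innate lymphoid class lay at 117 CPM in KO-labelled cells and 112 CPM in WT.

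Read against all genes, the counts in further classes were these. In neutrophils 1 of 6 members, Tnf, was at least 2-fold higher, where 11.2% of 3858 genes were, and 1, Tnfrsf1b, at least 2-fold lower, where 9.69% were. In macrophages 0 of 6 members passed 2-fold in either direction, where 4.65% of 7523 genes were higher and 6.45% lower. In dendritic cells 0 of 3 passed, where 12.1% of 2794 genes were higher and 8.09% lower. In T and innate lymphoid cells 1 of 6, Tnfrsf12a, was at least 2-fold higher, where 5.27% of 7479 genes were, and 0 at least 2-fold lower, where 3.53% were. In smooth muscle cells and pericytes 0 of 6 passed, where 6.13% of 7781 genes were higher and 11.3% lower. Plasma cells had 2 members with enough UMIs, Tnf (38 KO-labelled and 21 WT UMIs) and Tnfrsf1a (33 KO-labelled and 17 WT UMIs). The share of all genes past 2-fold is not given for plasma cells, so no count of members is read there. Tnf stood at 9.10 CPM in KO-labelled plasma cells and 4.42 CPM in WT, 2.06-fold higher (1.18 to 3.69). Tnfrsf1a stood at 7.90 CPM in KO-labelled plasma cells and 3.58 CPM in WT, 2.21-fold higher (1.19 to 4.23), an order that thinning reversed.

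Ltbr, the receptor of the surface lymphotoxin trimer (chromosome 6, 125306571 to 125313885, minus strand), was read in fibroblasts, smooth muscle cells, endothelium, epithelium and macrophages, and hardly in lymphocytes. Fibroblasts had 86.4 CPM (82.0 to 91.1) in KO-labelled cells and 128 CPM (119 to 138) in WT, 1.48-fold lower (1.35 to 1.62). Within single clusters the gap was narrower, at 88.8 CPM in KO-labelled cells and 102 CPM in WT in cluster 3, 80.5 CPM in KO-labelled cells and 85.0 CPM in WT in cluster 10, and 135 CPM in each library in cluster 11. KO-labelled cells of cluster 15 held 75.5 CPM and WT cells of cluster 4 139 CPM. A UMI was found in 35.1% of KO-labelled and 39.0% of WT fibroblasts, and in 0.843% of KO-labelled and 0.333% of WT T and innate lymphoid cells. Pericytes and smooth muscle cells had 99.4 CPM in KO-labelled cells and 91.8 CPM in WT, endothelial cells 83.0 CPM in KO-labelled cells and 97.0 CPM in WT, macrophages 59.9 CPM in KO-labelled cells and 58.4 CPM in WT, and WT epithelium 81.9 CPM. Cells with Ltb and cells with Ltbr were thus mostly separate classes in both libraries.

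Tnfrsf11b, the gene of osteoprotegerin (chromosome 15, 54250619 to 54278484, minus strand), was read mainly in fibroblasts. They held 90.4% of its KO-labelled and 91.8% of its WT UMIs, at 82.1 CPM in KO-labelled cells and 89.3 CPM in WT, a log2 ratio of -0.12 (-0.27 to 0.03), which turned to 0.26 with TMM scaling and 0.18 after thinning. Next among classes compared were smooth muscle cells and pericytes, at 23.1 CPM in KO-labelled cells and 18.9 CPM in WT. Cluster 3 held 117 CPM in KO-labelled cells and 122 CPM in WT, and cluster 10 held 21.8 CPM in KO-labelled cells and 98.7 CPM in WT, 4.52-fold lower (3.24 to 6.30). Its ligand Tnfsf11, which encodes RANKL, stood at 91.8 CPM in KO-labelled fibroblasts and 47.9 CPM in WT, 1.92-fold higher (1.68 to 2.19), but at 117 CPM in KO-labelled cells and 175 CPM in WT within cluster 3. Tnfrsf11a, which encodes the signalling receptor RANK, stood at 64.0 CPM in WT epithelium and at 49.6 CPM in KO-labelled cells and 30.6 CPM in WT in endothelial cells. Ligand and decoy thus both lay in fibroblasts, and the signalling receptor elsewhere.

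Tnfrsf12a, the gene of FN14 (chromosome 17, 23675445 to 23677468, minus strand), was higher in 5 of the KO-labelled classes compared, fibroblasts, smooth muscle cells, endothelium, T and innate lymphoid cells and B cells. Fibroblasts had 142 CPM (136 to 148) in KO-labelled cells and 108 CPM (99.5 to 117) in WT, 1.31-fold higher (1.2 to 1.44), with a UMI in 41.9% of KO-labelled and 20.8% of WT cells, or 12.97% (KO-labelled) and 6.82% (WT) after thinning. Erythroid cells had no Tnfrsf12a UMI in either library. Smooth muscle cells and pericytes had 94.5 CPM in KO-labelled cells and 63.9 CPM in WT, 1.48-fold higher (1.14 to 1.94). Their cluster 1 alone had 213 CPM in KO-labelled cells and 91.2 CPM in WT, 2.34-fold higher (1.39 to 4.12). Cluster 13 alone gave a log2 ratio of -0.46 from 19 WT UMIs, with an interval that includes no difference. Endothelial cells had 62.6 CPM in KO-labelled cells and 39.6 CPM in WT, 1.58-fold higher (1.04 to 2.46). T and innate lymphoid cells had 27.7 CPM in KO-labelled cells and 12.9 CPM in WT, 2.15-fold higher (1.32 to 3.60), and B cells 22.5 CPM in KO-labelled cells and 10.1 CPM in WT, 2.23-fold higher (1.43 to 3.44). Fibroblast markers in T and innate lymphoid cells summed to 3.38% of their own-class level in KO-labelled cells and 0.852% in WT, and their part in the lymphocyte values was not tested. Fibroblast clusters disagreed. Cluster 3 had 149 CPM in KO-labelled cells and 411 CPM in WT, 2.75-fold lower (2.41 to 3.13), cluster 11 had 118 CPM in KO-labelled cells and 31.2 CPM in WT, 3.76-fold higher (1.60 to 10.8), and cluster 10 had 129.7 CPM in KO-labelled cells and 108 CPM in WT. Cluster 4, most of the WT fibroblasts, had 60.5 CPM. Which fibroblast clusters each library filled and the whole-class direction cannot be told apart. The ligand Tnfsf12, which encodes TWEAK and also lies inside Tnfsfm13, stood at 59.5 CPM in KO-labelled fibroblasts and 90.4 CPM in WT.

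**Figure D5:**
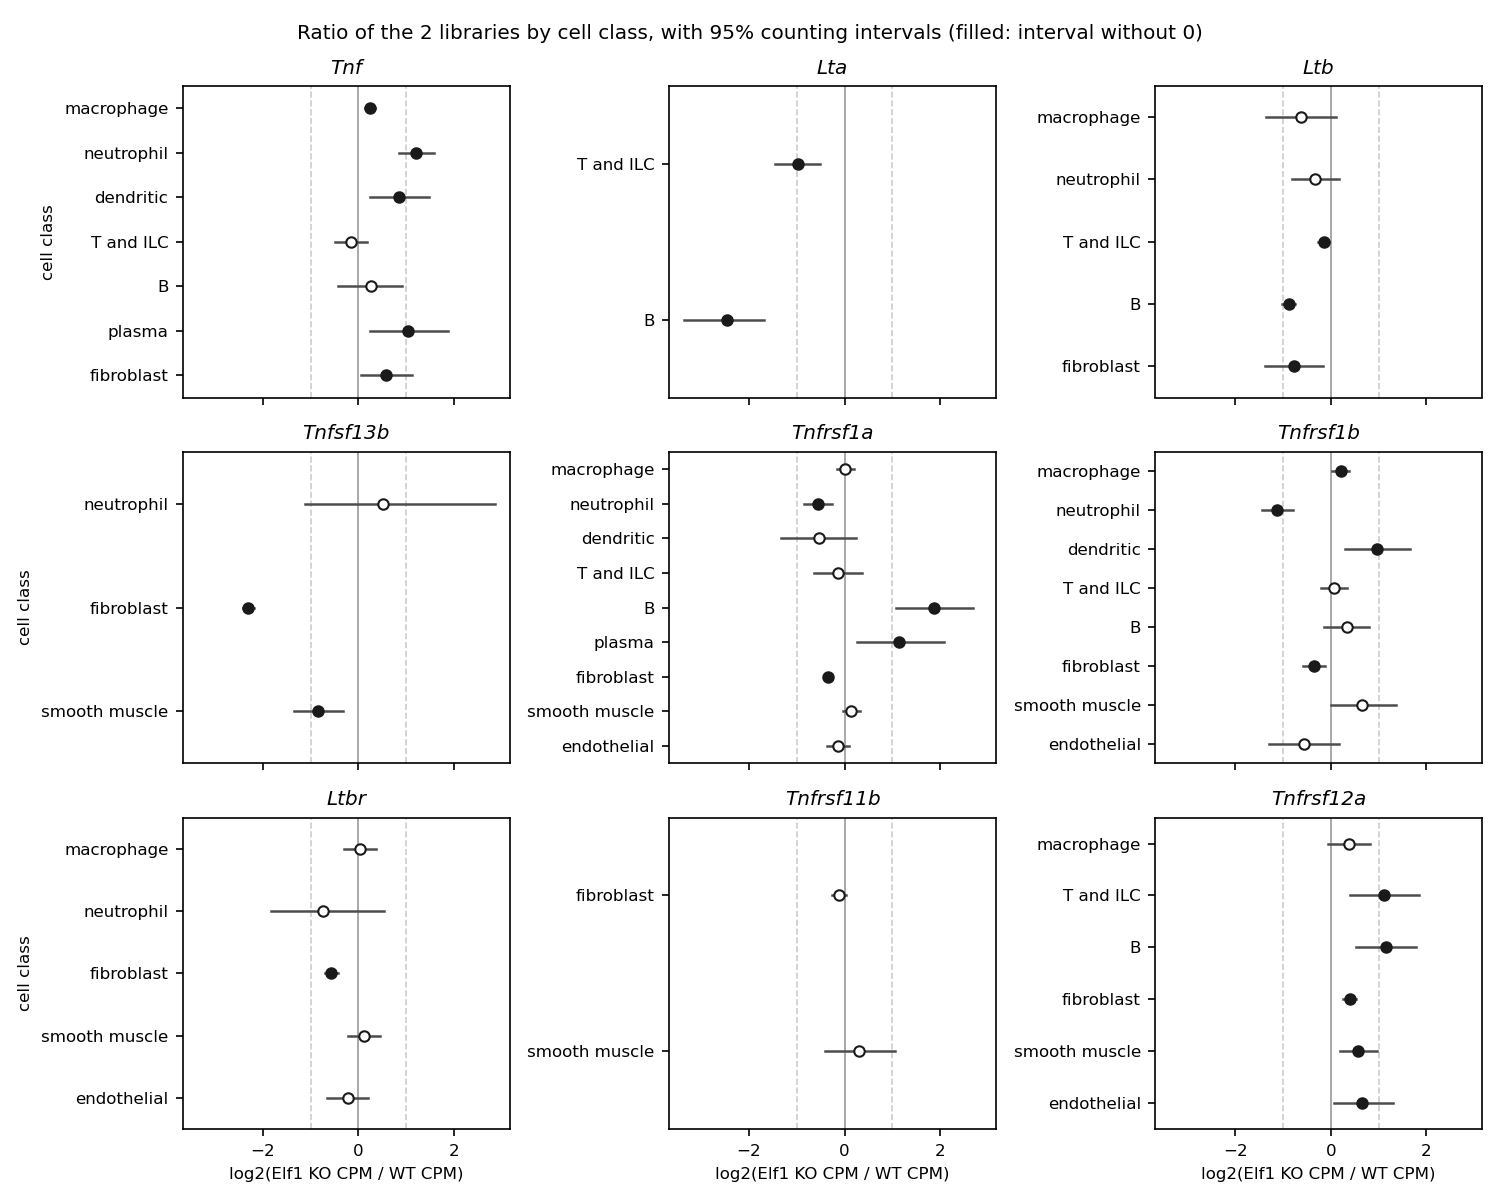
Log2 ratio of KO-labelled over WT for each member and class with at least 100 cells in each library and at least 50 UMIs. Lines are exact 95% intervals of counting error, filled points have an interval without 0, and dashed lines mark 2-fold in either direction. The lowest points are Lta in B cells (-2.46) and Tnfsf13b in fibroblasts (-2.30), and Tnf in neutrophils lies at 1.21.

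Other ligands of the superfamily moved in both directions over all kept cells. Of 12 with at least 50 UMIs, 4 were at least 2-fold higher and 3 at least 2-fold lower, where 7.29% of all genes were higher and 18.3% lower, and the median log2 ratio was 0.46 beside -0.25 over all genes. Tnfsf11 stood at 44.5 CPM in KO-labelled cells and 11.5 CPM in WT, and Tnfsf14, which encodes the Ltbr ligand LIGHT, at 8.78 CPM in KO-labelled cells and 3.42 CPM in WT. The T cell ligands Tnfsf4 (OX40L's gene, 1.34 CPM KO-labelled, 0.268 CPM WT) and Cd70 (1.72 CPM KO-labelled, 0.536 CPM WT) were higher from low levels. Tnfsf15, which encodes TL1A, stood at 0.349 CPM in KO-labelled cells and 2.25 CPM in WT, Tnfsf10, which encodes TRAIL, at 1.82 CPM in KO-labelled cells and 9.22 CPM in WT, and Cd40lg, the helper signal to B cells, at 2.01 CPM in KO-labelled cells and 5.50 CPM in WT. Tnfsf8, the ligand of CD30, stood at 4.54 CPM in KO-labelled cells and 7.75 CPM in WT. In T and innate lymphoid cells Tnfsf9, the ligand of 4-1BB, stood at 94.6 CPM in KO-labelled cells and 31.2 CPM in WT, and Cd40lg at 32.8 CPM in KO-labelled cells and 85.5 CPM in WT. Different subtypes filled that class, with 78 KO-labelled and 392 WT CD4 T-like cells, 112 KO-labelled and 52 WT regulatory T-like cells and 115 KO-labelled and 7 WT gamma delta T-like cells. The CD4 T-like cells were those of subclusters 5 (24 KO-labelled, 194 WT), 8 (51 KO-labelled, 144 WT) and 9 (3 KO-labelled, 54 WT). They leave out the unnamed subcluster 0, nearest to CD4 T by markers, with 302 KO-labelled and 30 WT cells. Subcluster and genotype therefore cannot be told apart in the CD4 T-like values. Within CD4 T-like cells Cd40lg stood at 32.9 CPM in KO-labelled cells and 164 CPM in WT, from 4 KO-labelled and 117 WT UMIs, and within regulatory T-like cells Tnfsf9 at 238 CPM in KO-labelled cells and 123 CPM in WT.

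Of 20 other receptors with enough UMIs, 4 were at least 2-fold higher and 6 at least 2-fold lower, against the same shares of all genes, with a median of -0.30 beside -0.25. Tnfrsf9, which encodes the co-stimulatory receptor 4-1BB, stood at 40.9 CPM in KO-labelled cells and 9.22 CPM in WT, and at 388 CPM in KO-labelled cells and 104 CPM in WT in T and innate lymphoid cells. Within regulatory T-like cells it stood at 1179 CPM in KO-labelled cells and 876 CPM in WT, 1.35-fold higher (1.07 to 1.70), and within CD4 T-like cells at 74.1 CPM in KO-labelled cells and 43.5 CPM in WT, with an interval that includes no difference. Fas, a death receptor, stood at 111 CPM in KO-labelled cells and 52.8 CPM in WT, Tnfrsf23, a mouse decoy receptor, at 9.47 CPM in KO-labelled cells and 3.92 CPM in WT, and Tnfrsf25, the TL1A receptor, at 4.88 CPM in KO-labelled cells and 2.38 CPM in WT. The lowest ratios were Tnfrsf13c at 10.04 CPM in KO-labelled cells and 73.9 CPM in WT, Tnfrsf11a at 4.11 CPM in KO-labelled cells and 18.0 CPM in WT, Tnfrsf21 at 4.88 CPM in KO-labelled cells and 15.0 CPM in WT, and Tnfrsf17 at 4.80 CPM in KO-labelled cells and 13.9 CPM in WT. In dendritic cells 5 of 5 receptors were at least 2-fold higher, where 12.1% of genes were, among them Cd40 at 458 CPM in KO-labelled cells and 135 CPM in WT. Cluster 0 made up more of the KO-labelled dendritic cells, and Cd40 stood there at 674 CPM in KO-labelled cells and 279 CPM in WT, against 116 CPM in KO-labelled cells and 104 CPM in WT in cluster 23.

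Of the genes that act just below the receptors, 26 of 32 stayed within 2-fold. Of these 32 signalling genes over all kept cells, 1 was at least 2-fold higher, Tnip1, an NF-kB inhibitor, at 149 CPM in KO-labelled cells and 50.5 CPM in WT. The 5 genes Tradd, Traf4, Traf5, Rbck1 and Casp8 were at least 2-fold lower, and the median was -0.34 beside -0.25. As 5 of 32 is no larger a share than the 18.3% of all genes that were lower, the count is not particular to this list. Tradd, the adaptor of TNFR1, stood at 13.1 CPM in KO-labelled cells and 49.1 CPM in WT, Casp8, the death-signalling protease, at 23.6 CPM in KO-labelled cells and 50.03 CPM in WT, and Rbck1, part of the linear ubiquitin ligase, at 22.5 CPM in KO-labelled cells and 47.7 CPM in WT. Within fibroblasts 1 of 32 was higher and 4 lower, where 3.39% of genes were higher and 13.4% lower, with a median of -0.23 beside -0.34 over all genes. Within B cells 0 of 30 were higher and 1, Tradd at 12.5 CPM in KO-labelled cells and 30.1 CPM in WT, was lower, where 4.02% of genes were higher and 6.31% lower, with a median of -0.04 in both the list and all genes. Of 8 genes for processing and shedding of the ligands, 0 passed 2-fold in either direction over all kept cells, and Furin, a proprotein convertase, stood at 68.8 CPM in KO-labelled cells and 35.6 CPM in WT.

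Of the genes known to be induced by TNF through NF-kB, more were past 2-fold higher than past 2-fold lower. Over all kept cells 12 of 27 were at least 2-fold higher and 2 at least 2-fold lower, where 7.29% of genes were higher and 18.3% lower, with a median of 0.65 beside -0.25. The list was chosen with earlier results of these data known, so its direction is not independent evidence. The 4 highest ratios were those of Csf3, a neutrophil growth factor, at 855 CPM in KO-labelled cells and 32.0 CPM in WT, and of the chemokines Cxcl5 (1726 CPM KO-labelled, 253 CPM WT), Cxcl1 (2094 CPM KO-labelled, 341 CPM WT) and Ccl2 (1719 CPM KO-labelled, 341 CPM WT). Ccl20, an epithelial chemokine, was lower, at 3.11 CPM in KO-labelled cells and 17.9 CPM in WT, and so was Madcam1, the gut vascular addressin, at 23.8 CPM in KO-labelled cells and 56.7 CPM in WT. Within fibroblasts 5 of 25 were at least 2-fold higher and 1, Vcam1, lower (375 CPM KO-labelled, 819.5 CPM WT), where 3.39% of genes were higher and 13.4% lower, with a median of 0.43 beside -0.34. Within B cells 12 of 21 were at least 2-fold higher, where 4.02% of genes were, with a median of 1.44 beside -0.04. Within T and innate lymphoid cells 10 of 24 were higher, where 5.27% of genes were, and 1 lower, where 3.53% were, with a median of 0.91 beside 0.08. In neutrophils 3 of 20 were higher, where 11.2% of genes were, and 5 lower, where 9.69% were, with a median of -0.50 beside -0.07. Fibroblast markers summed to 3.03% of their own-class level in KO-labelled B cells against 0.879% in WT, and to 3.38% in KO-labelled T and innate lymphoid cells against 0.852% in WT. Csf3 stood in B cells at 55.2 CPM in KO-labelled cells and 1.31 CPM in WT, and the part of fibroblast RNA in the lymphocyte counts was not tested.

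Targets of the lymphotoxin beta receptor did not move one way. Over all kept cells 3 of 10 were at least 2-fold higher, Cxcl13, Il33 and Icam1, and 1, Madcam1, lower, where 7.29% of genes were higher and 18.3% lower, with a median of 0.51 beside -0.25. Cxcl13, which draws B cells, stood at 2643 CPM in KO-labelled cells and 599 CPM in WT. Within fibroblasts, the class with most Ltbr UMIs, 0 of 10 were at least 2-fold higher and 2 at least 2-fold lower, Cxcl12 (916 CPM KO-labelled, 2450.2 CPM WT) and Vcam1, where 3.39% of genes were higher and 13.4% lower, with a median of 0.04 beside -0.34. Icam1 stood there at 439 CPM in KO-labelled cells and 238 CPM in WT, and Il33, an alarmin, at 344 CPM in KO-labelled cells and 192 CPM in WT. In smooth muscle cells and pericytes 4 of 7 were at least 2-fold higher and 0 lower, where 6.13% of genes were higher and 11.3% lower. The median there was 1.52 beside -0.18, and different clusters filled that class in each library. In neutrophils 1 of 5 was higher and 1 lower, where 11.2% of genes were higher and 9.69% lower, with a median of -0.60 beside -0.07.

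Across 22 points, each a class in 1 library, members fell into lymphoid, myeloid and stromal patterns. The points share libraries and differ in depth, so these Pearson correlations of log2(CPM + 1) are descriptions. Tnf went most closely with Nfkbiz (0.92), an NF-kB cofactor, Rab11fip1 (0.92) and Sema4a (0.91). Lta went with Mns1 (0.93) and the T cell kinase gene Lck (0.91), and Ltb with Rbm38 (0.95) and Vps37b (0.92). Tnfsf13b went with the matrix-associated genes Gsn (0.94), Mfap4 (0.90) and Ccdc80 (0.89). Tnfrsf1a went with Cdc42ep4 (0.96), Tnfrsf1b with Rhog (0.96), Ltbr with Zfhx3 (0.93), Tnfrsf11b with Prrx2 (0.94), a mesenchymal homeobox gene, and Tnfrsf12a with Sbf2 (0.96). Among members, Tnf and Tnfrsf1b correlated at 0.87, Tnfrsf1a and Ltbr at 0.86, Lta and Ltb at 0.76 and Tnfsf13b and Tnfrsf11b at 0.73.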

How the data were processed

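Single-cell RNA was measured in 1 library per genotype, each from pooled colon cells of 3 mice. The authors deposited a gene by cell matrix of counts (UMIs per gene and barcode, not normalized) for each library. Per the submitters' processing notes, cutadapt 1.17, STAR 2.6.1a and featureCounts 2.0.1 were used with genome GRCm38. Neither strand settings nor the treatment of reads shared between genes is stated there.

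Barcodes passed with 500 UMIs or more, 200 genes or more and a mitochondrial share of up to 25%. Scrublet, in scanpy 1.11.5, removed 260 KO-labelled cells (2.67%). In WT it marked 0.0246%, under the 0.5% set as the mark of failure, so the 5% of highest scores (406 cells) was removed. Both libraries were clustered together (2000 variable genes without the 10 members, 30 principal components, 15 neighbours, Leiden resolution 1, and 2 for finer clusters) and classes named from fixed markers. UMIs were summed per class and library and divided by the class total (CPM). A ratio needed 100 cells in each library and 50 UMIs in all; a level needed 40 cells in 1 library. A count of 0 was taken as at most 3 for limits. Depth, the UMIs behind each value, sets the intervals. TMM factors came from edgeR 4.0.16, used for scaling only.

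With 1 library per group nothing was tested. Named were all members in all classes and, of each list, the 4 highest and 4 lowest ratios over all kept cells and in fibroblasts, B cells and T and innate lymphoid cells, of which a selection is printed; genes named from other classes, and markers of clusters, were chosen after their values were seen. Likeness was Pearson correlation over 11 classes in both libraries, with a pseudocount of 1. Members and lists were chosen with earlier results of these data known. Counting and intervals were tested on simulated data. Columns of other samples numbered 0.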

Additional observations from a re-analysis of the deposited data

Results flagged for a closer look

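Both TNF receptor genes ran in opposite directions in different leukocytes. The log2 ratio of KO-labelled over WT for Tnfrsf1a was 1.87 in B cells and -0.56 in neutrophils. For Tnfrsf1b it was 0.96 in dendritic cells and -1.12 in neutrophils. Each of these 4 ratios had an interval without 0, and the difference between classes was not tested, since each genotype has 1 library. The B cell value rests on 30 KO-labelled and 26 WT UMIs, in 2.37% of KO-labelled and 0.867% of WT B cells, near or below the shares of erythroid cells (2.20% KO-labelled, 2.38% WT). Erythroid cells were deeper, at medians of 6742 UMIs (KO-labelled) and 9114.5 UMIs (WT) against 1164 and 1405 UMIs in B cells. By CPM they held 2.97 (KO-labelled) and 2.42 (WT) against 17.8 and 4.86 in B cells. Fibroblast markers in B cells summed to 3.03% (KO-labelled) and 0.879% (WT) of their own-class level. With TMM scaling Tnfrsf1a in neutrophils moved to -0.18, and its interval then included 0. The dendritic class was made up mainly of cluster 0 in the KO-labelled library and of cluster 23 in WT, and Tnfrsf1b stood at 136 CPM in KO-labelled cells and 139 CPM in WT within cluster 0. KO-labelled neutrophils held 508 cells of a finer cluster with granule genes, against 7 in WT.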

How the results depend on the processing

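For 56 ratios, 575 alternatives were run, and 529 kept the direction of the main value. Of the 102 alternatives for the 9 ratios of each member in the class holding most of its UMIs, 94 kept the direction and 69 moved by less than the counting interval. The following log2 ratios moved further or reversed. With TMM scaling they were -0.18 for Ltbr, 0.26 for Tnfrsf11b (from -0.12, a turn of direction), 0.77 for Tnfrsf12a, 0.023 for Tnfrsf1a (reversed) and -1.92 for Tnfsf13b in fibroblasts, 0.019 for Tnfrsf1b in fibroblasts (reversed) and 0.40 for Tnf in macrophages. TMM adds 1 constant per class, which is the cause. After thinning they were 0.076 for Tnf in macrophages, 0.18 for Tnfrsf11b (again turned), 0.93 for Tnfrsf12a and -2.11 for Tnfsf13b in fibroblasts, and, reversed, 0.075 for Ltb in T cells and -1.22 for Tnfrsf1a in plasma cells. As a mean over cells they were -3.62 for Lta in B cells, 0.70 for Tnfrsf12a in fibroblasts, 0.017 for Tnfrsf1b in macrophages and 0.10 for Ltb in T cells (reversed). With doublets kept Tnfrsf1a in fibroblasts was -0.27, and with libraries clustered separately Ltb in B cells was -0.58. At Leiden resolution 2 Tnf in dendritic cells was -0.16 (reversed), and with equal class shares Ltbr over all kept cells was -0.22 (reversed). The cause was not tested for these.

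Clusters alone were read after the data had been seen. Fibroblast cluster 3 gave -0.20 for Ltbr, -0.19 for Tnfsf13b and, reversed, -1.46 for Tnfrsf12a, 0.14 for Tnfrsf1a and 0.20 for Tnfrsf1b. Cluster 10 gave -0.079 for Ltbr, -2.18 for Tnfrsf11b, 0.26 for Tnfrsf12a, -0.085 for Tnfrsf1a and -2.49 for Tnfsf13b. Cluster 11 gave 6.2e-05 for Ltbr (reversed), 1.91 for Tnfrsf12a and -0.26 for Tnfrsf1a. Macrophage cluster 5 gave 0.97 for Tnf and -0.25 for Tnfrsf1b (reversed), and cluster 7 -0.15 for Tnf (reversed) and 0.61 for Tnfrsf1b. B cell cluster 8 gave -4.27 for Lta and -1.09 for Ltb. T cell cluster 17 gave 0.30 for Ltb and smooth muscle cluster 13 -0.46 for Tnfrsf12a (both reversed), the latter with an interval that includes no difference. Smooth muscle cluster 1 gave 1.22 for Tnfrsf12a. The 47 other ratios had 473 alternatives, of which 401 moved by less than the counting interval.

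No paired analysis was possible because each genotype has 1 library, and leaving out a library leaves no comparison. Differences between mice were not measured, WT neutrophils (165 cells) and KO-labelled epithelium (64 cells) limit depth, and free RNA was not modelled in the main values.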

Other observations

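Co-stimulatory pairs of the superfamily were read mostly in antigen-presenting and T cells. In dendritic cells Tnfsf9, the ligand of 4-1BB, stood at 1453 CPM in KO-labelled cells and 999.8 CPM in WT. Tnfrsf4, which encodes OX40, stood there at 170.5 CPM in KO-labelled cells and 49.99 CPM in WT, 3.41-fold higher (2.14 to 5.63). The libraries filled dendritic clusters unequally, and within cluster 0 (135 KO-labelled, 31 WT cells) Tnfrsf4 stood at 278 CPM in KO-labelled cells and 267 CPM in WT, and Tnfsf9 at 1661 CPM in KO-labelled cells and 2102 CPM in WT. In T and innate lymphoid cells Tnfrsf18, which encodes GITR, stood at 415 CPM in KO-labelled cells and 212 CPM in WT, and within regulatory T-like cells (112 KO-labelled, 52 WT) at 1218 CPM in KO-labelled cells and 709 CPM in WT. Within CD4 T-like cells (78 KO-labelled, 392 WT) it stood at 165 CPM in KO-labelled cells and 196 CPM in WT. In smooth muscle cells and pericytes Fas stood at 347 CPM in KO-labelled cells and 114 CPM in WT, 3.03-fold higher (2.52 to 3.67). Most KO-labelled cells of that class lay in cluster 13 (1053 of 1210) and most WT cells in cluster 29 (265 of 395). Cluster and genotype therefore cannot be told apart in the Fas value. Tnfsf14 stood at 40.7 CPM in KO-labelled and 19.0 CPM in WT macrophages, and at 53.2 CPM in KO-labelled and 118 CPM in WT neutrophils. These genes were chosen after their values were seen.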
